A study of Mus musculus with 16 samples.

Results

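The expression of 10 endothelial and angiogenic genes was examined in mouse seminal vesicles (SV) at week 5, after neonatal exposure to the synthetic oestrogen diethylstilboestrol (DES). The genes were *Pecam1*, *Cdh5*, *Kdr*, *Flt1*, *Tek*, *Eng*, *Vegfa*, *Vegfc*, *Angpt1* and *Angpt2*. They were chosen by name for their known roles, with no measured value in the rule but with earlier results of these data known. They are 10 of the 31274 genes in the deposited table. Values are FPKM, fragment numbers scaled by the length of the gene and the size of the library. All 10 had a mean above 1 FPKM in at least 1 group and so were among the 15988 genes tested.

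The 16 samples formed 4 groups of 4, all SV of C57BL/6 males at week 5. WT-veh mice were wild-type and received corn oil, and WT-DES mice were wild-type and received DES in corn oil at 2 µg per pup per day. αERKO-veh and αERKO-DES mice lacked oestrogen receptor α (ERα, encoded by *Esr1*) in all cells and received corn oil or the same DES dose. Injections were given under the skin from day 1 to day 5 after birth in all groups. The WT mice came from purchased pregnant females and the αERKO mice from heterozygous breeding, so genotype and source cannot be told apart. The study's methods describe RNA from individual mice in 3 groups and from pools of mice for WT-DES. The labels give 4 WT-DES samples, more than the number of pools in the methods, so whether all of them are independent is not known. A p-value measures only the spread between these samples.

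*Esr1* was read first as a check of the genotypes. Its FPKM was 4.43, 4.55, 3.70 and 2.81 in WT-veh and 8.74, 19.6, 12.99 and 15.7 in WT-DES. The αERKO-veh samples held 1.30, 1.59, 1.75 and 1.43 FPKM, and the αERKO-DES samples 0.91, 1.15, 1.51 and 1.64. All of these lay below the lowest WT value, and the table gives 1 value for the whole gene, with no value for the disrupted stretch. The secretory genes that define the SV, 8 *Svs* and related genes, summed to between 49300 and 57300 FPKM in WT-veh and to between 2450 and 7950 in WT-DES. WT-DES replicate 1 stood apart in smooth muscle genes, with a mean level of 9.16 on the log2(FPKM + 1) scale against 6.76 to 7.54 in the other WT-DES samples. αERKO-veh and 1 WT-veh sample carried high levels of skeletal muscle genes, given below beside the results they touch. The sum of FPKM over all genes ranged from 375207 to 652708 between samples, and the sequencing depth is unknown.

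Blood vessels are lined by endothelial cells. *Pecam1* and *Cdh5* encode adhesion molecules of the junctions between these cells and are standard markers of them. *Kdr* and *Flt1* encode receptors for vascular endothelial growth factor (VEGF). *Kdr* carries most of the growth signal, and *Flt1* binds VEGF-A tightly and also exists as a soluble form that holds it back. *Tek* encodes the receptor for angiopoietins, and *Eng* encodes endoglin, a co-receptor for ligands of the TGFβ family. These genes, *Pecam1*, *Cdh5*, *Kdr*, *Flt1*, *Tek* and *Eng*, are the 6 endothelial genes referred to below. *Vegfa* is the main growth factor for blood vessels, is made largely by epithelial and other non-endothelial cells and is induced by low oxygen. *Vegfc* acts chiefly on lymphatic vessels. *Angpt1*, made by mural and stromal cells, activates the *Tek* receptor and stabilises vessels, whereas *Angpt2*, made by endothelial cells, can oppose it.

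The promoters of 5 of these genes are shown because 4 of them, the receptor genes, rose together with DES in WT while *Vegfa* moved the other way. Each is the 250 bases upstream of a RefSeq start on GRCm38.p6, read 5′ to 3′ on the gene's strand. RefSeq windows were matched for 6 of the 10 genes, and for *Vegfa* the more upstream of its 2 windows is shown. Capitals mark 2 motifs searched on both strands, the ETS core (AGGAAG or CGGAAG), a motif bound by the ETS factors that many endothelial genes use, and the GC box (GGGCGG).
Kdr (chr5:75978456-75978705, minus strand): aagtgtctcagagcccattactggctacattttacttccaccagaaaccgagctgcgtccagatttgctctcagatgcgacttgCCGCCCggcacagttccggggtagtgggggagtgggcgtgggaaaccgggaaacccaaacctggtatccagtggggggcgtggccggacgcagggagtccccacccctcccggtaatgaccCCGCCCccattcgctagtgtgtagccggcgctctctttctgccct
Flt1 (chr5:147726012-147726261, minus strand): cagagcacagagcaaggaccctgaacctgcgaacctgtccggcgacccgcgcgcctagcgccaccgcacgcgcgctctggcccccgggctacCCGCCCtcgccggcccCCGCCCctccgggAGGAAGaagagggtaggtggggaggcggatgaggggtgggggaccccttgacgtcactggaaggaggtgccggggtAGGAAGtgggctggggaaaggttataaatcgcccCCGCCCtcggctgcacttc
Tek (chr4:94739039-94739288, plus strand): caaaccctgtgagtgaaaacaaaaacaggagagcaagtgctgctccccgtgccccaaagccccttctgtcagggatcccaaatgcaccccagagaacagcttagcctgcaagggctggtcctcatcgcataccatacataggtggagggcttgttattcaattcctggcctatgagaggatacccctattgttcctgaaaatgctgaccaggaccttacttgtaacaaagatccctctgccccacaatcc
Eng (chr2:32646345-32646594, plus strand): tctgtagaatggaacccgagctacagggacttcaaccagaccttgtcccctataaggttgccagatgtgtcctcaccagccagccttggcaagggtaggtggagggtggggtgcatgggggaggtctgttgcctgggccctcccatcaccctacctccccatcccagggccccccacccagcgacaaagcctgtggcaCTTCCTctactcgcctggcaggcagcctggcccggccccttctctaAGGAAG
Vegfa (chr17:46032378-46032627, minus strand): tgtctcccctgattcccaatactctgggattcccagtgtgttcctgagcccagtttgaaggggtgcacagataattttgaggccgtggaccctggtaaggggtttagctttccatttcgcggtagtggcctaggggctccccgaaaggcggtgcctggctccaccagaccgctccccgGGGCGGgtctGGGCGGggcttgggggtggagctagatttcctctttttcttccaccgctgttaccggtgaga

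The ETS core was found at 2 places in the *Flt1* window and at 2 in the *Eng* window, and not in the windows of *Kdr*, *Tek* or *Vegfa*. The GC box was found at 2 places in *Kdr*, 3 in *Flt1* and 2 in *Vegfa*, and not in *Tek* or *Eng*. No marked ETS core overlapped a GC box. For comparison, 39.2% of the 32851 RefSeq windows of this length held an ETS core and 32.7% held a GC box. A full oestrogen response element (a GGTCA half-site, 3 free bases and its mirror TGACC) occurred in 0.0639% of all windows and in none of these. These are descriptions of letters in a short window and say nothing of whether a factor binds.

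The 10 genes lie on 7 chromosomes of GRCm38 (GENCODE M21). *Kdr* (chr5:75932827-75978458, minus strand) and *Flt1* (chr5:147561604-147726011, minus strand) share a chromosome, as do *Cdh5* (chr8:104101625-104144511, plus strand), *Vegfc* (chr8:54077606-54187096, plus strand) and *Angpt2* (chr8:18690263-18741562, minus strand). *Pecam1* is at chr11:106654217-106750628 (minus strand), *Tek* at chr4:94739289-94874976 (plus strand), *Eng* at chr2:32646595-32682669 (plus strand), *Vegfa* at chr17:46016993-46032369 (minus strand) and *Angpt1* at chr15:42424723-42676977 (minus strand). A gene on the other strand shares exonic bases with *Eng* (*Fpgs*, 61 of 4048 bases) and with *Angpt1* (*Gm17473*, 737 of 5205 bases). Whether the FPKM used strand is not given in the sources used here, so reads in these stretches cannot be told apart.

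In WT-veh the levels in FPKM ran from *Vegfa* (73.2) through *Eng* (24.9), *Pecam1* (23.9), *Cdh5* (12.5), *Kdr* (5.19), *Vegfc* (4.98), *Tek* (3.92) and *Flt1* (3.03) to *Angpt2* (1.83) and *Angpt1* (1.73). Neighbours in this order overlapped between samples for *Eng* and *Pecam1*, for *Kdr* and *Vegfc*, for *Tek* and *Flt1* and for the angiopoietins. In WT-DES *Pecam1* (62.6 FPKM) stood above *Vegfa* (44.4 FPKM), with ranges that overlapped between 50.1 and 54.4 FPKM.

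The comparison of WT-DES with WT-veh asked how neonatal DES changed these genes at week 5 where ERα was present. Of the 10 genes, 8 rose and *Vegfa* fell. Genes were called where the adjusted p of limma over all genes tested was at most 0.05 and the ratio of mean FPKM was at least 1.5. The members' count is read against a broad background, since 52.7% of all genes tested were called, 28.9% higher and 23.9% lower. The median log2 change of the 10 genes was 1.20, against -0.01 over all genes tested. For all 10 genes the 4 WT-DES samples did not overlap the 4 WT-veh samples. The share of all genes tested without such overlap is not given, here or for the comparisons below. Counts of genes without overlap are therefore descriptions only. In bulk tissue, more cells of a type and more RNA per cell cannot be told apart, and this holds for every rise or fall below.

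**Figure D1:**
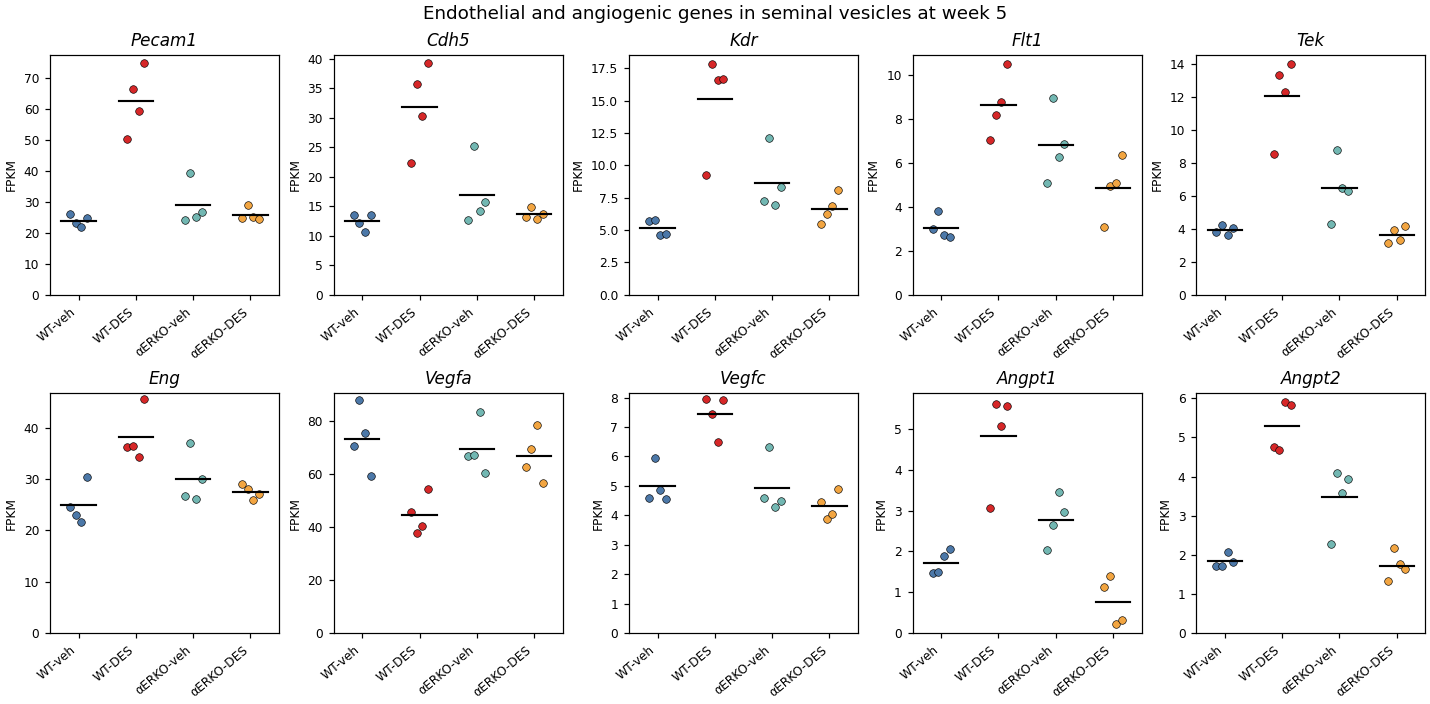
FPKM of the 10 genes (vertical axes, 1 panel a gene) in the 4 groups, with 1 point a sample and a line at the mean of 4 samples. In every panel but *Vegfa* the WT-DES samples are the group with the highest mean, and for *Vegfa* they are the lowest, with means of 44.4 FPKM in WT-DES and 73.2 in WT-veh.

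The junction markers rose with DES in WT. *Pecam1* was 26.0, 23.0, 21.9 and 24.8 FPKM in WT-veh and 50.1, 66.5, 59.1 and 74.7 in WT-DES. Its αERKO-veh values were 24.1, 39.4, 25.0 and 26.8, with 24.7, 28.8, 25.0 and 24.5 for αERKO-DES. WT-DES lay apart from all other samples, and replicate 2 was high in αERKO-veh. The ratio of means, WT-DES to WT-veh, was 2.62, with a log2 change of 1.34 ± 0.14 (SE, limma adjusted p = 7.37e-07). *Cdh5* was 13.6, 12.1, 10.6 and 13.5 FPKM in WT-veh and 22.4, 35.8, 30.3 and 39.3 in WT-DES. The αERKO-veh samples had 12.7, 25.3, 14.3 and 15.7 FPKM and the αERKO-DES samples 13.2, 14.8, 12.8 and 13.7. Here WT-DES replicate 1 was lowest of its group and below the same high αERKO-veh sample. The *Cdh5* ratio was 2.56 (log2 change 1.27 ± 0.185, limma adjusted p = 2.02e-05).

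The VEGF receptors rose by similar factors. *Kdr* was 5.67, 5.78, 4.58 and 4.72 FPKM in WT-veh and 9.28, 17.9, 16.6 and 16.7 in WT-DES. Without ERα, values were 7.28, 12.1, 6.90 and 8.30 after vehicle and 5.49, 6.22, 6.85 and 8.06 after DES. WT-DES replicate 1 was far below the other WT-DES samples but above all WT-veh samples. The *Kdr* ratio was 2.91 (log2 change 1.35 ± 0.19, limma adjusted p = 1.54e-05), and the log2 change was 1.55 without WT-DES replicate 1. *Flt1* was 2.98, 3.79, 2.71 and 2.64 FPKM in WT-veh and 7.05, 8.18, 8.76 and 10.5 in WT-DES. Its αERKO-veh values were 5.09, 8.95, 6.28 and 6.84, with 3.08, 4.94, 5.10 and 6.33 for αERKO-DES. Its WT-DES samples overlapped αERKO-veh but no other group. The *Flt1* ratio was 2.85 (log2 change 1.25 ± 0.18, limma adjusted p = 1.67e-05).

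*Tek*, the angiopoietin receptor, had the highest ratio of the 10 genes in this comparison on the deposited scaling. After quantile normalization the log2 changes of *Pecam1* (1.73), *Cdh5* (1.44) and *Kdr* (1.25) were above that of *Tek* (1.21). *Tek* was 3.80, 4.23, 3.61 and 4.06 FPKM in WT-veh and 8.53, 13.3, 12.3 and 14.0 in WT-DES. The αERKO-veh samples had 4.32, 8.79, 6.50 and 6.32 FPKM and the αERKO-DES samples 3.12, 3.91, 3.33 and 4.15. WT-DES and αERKO-veh touched, through the lowest sample of the former and the highest of the latter. The *Tek* ratio was 3.07 (log2 change 1.38 ± 0.17, limma adjusted p = 2.89e-06). *Eng* rose least among the endothelial genes. It was 24.6, 23.0, 21.7 and 30.3 FPKM in WT-veh and 36.2, 36.3, 34.3 and 45.5 in WT-DES. Without ERα, values were 26.8, 37.0, 26.1 and 29.9 after vehicle and 28.9, 28.1, 25.9 and 27.1 after DES. Its groups were closer together, and αERKO-veh replicate 2 reached the level of WT-DES. The *Eng* ratio was 1.53 (log2 change 0.60 ± 0.12, limma adjusted p = 0.000358), close to the fold threshold, and *Eng* was no longer called without WT-veh replicate 2, WT-veh replicate 3 or WT-DES replicate 4 (log2 change 0.51 to 0.56).

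The ligands did not move as a block. *Vegfa* fell. It was 70.5, 87.8, 75.2 and 59.2 FPKM in WT-veh and 45.6, 37.6, 40.2 and 54.4 in WT-DES. Its αERKO-veh values were 66.6, 67.2, 83.3 and 60.2, with 62.6, 69.3, 78.4 and 56.6 for αERKO-DES. WT-DES lay below all samples of the other groups, which overlapped each other. The *Vegfa* ratio was 0.607 (log2 change -0.71 ± 0.14, limma adjusted p = 0.000363). The call depended on the scaling between samples, with a log2 change of -0.26 (limma adjusted p = 0.121) after quantile normalization and -0.28 (limma adjusted p = 0.0914) with sample totals equalised without the top 20 genes. Under the latter scaling the median of all genes moved by 0.39 and the members split into 9 higher and 0 lower, and relative to that median *Vegfa* stood at -0.66. After quantile normalization *Vegfa* stood at -0.18 relative to the median of all genes.

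*Vegfc* was 4.59, 5.94, 4.85 and 4.56 FPKM in WT-veh and 7.94, 7.43, 6.48 and 7.90 in WT-DES. The αERKO-veh samples had 4.60, 6.31, 4.28 and 4.47 FPKM and the αERKO-DES samples 4.46, 3.89, 4.03 and 4.91. WT-DES lay above all other samples. Its log2 change of 0.50 ± 0.11 passed the test (limma adjusted p = 0.00102), but the ratio of 1.49 stayed under the fold threshold, so it was not called. Its value moved with the scaling, to a log2 change of 0.19 (limma adjusted p = 0.139) after quantile normalization and to 0.87 (limma adjusted p = 2.84e-05, called) with equal totals. *Vegfc* was also called under median-ratio scaling (0.51) and without WT-veh replicate 2 (0.57) or WT-DES replicate 3 (0.55).

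*Angpt1* and *Angpt2* both rose. *Angpt1* was 1.48, 1.49, 1.88 and 2.06 FPKM in WT-veh and 3.07, 5.60, 5.06 and 5.57 in WT-DES. Without ERα, values were 2.03, 2.64, 3.46 and 2.97 after vehicle and 1.12, 1.41, 0.22 and 0.31 after DES. αERKO-DES was below all other groups, and its samples fell into a higher and a lower pair. The *Angpt1* ratio in WT was 2.79 (log2 change 1.07 ± 0.22, limma adjusted p = 0.000426). *Angpt2* was 1.72, 1.71, 2.07 and 1.83 FPKM in WT-veh and 4.76, 4.69, 5.90 and 5.82 in WT-DES. Its αERKO-veh values were 2.28, 4.08, 3.57 and 3.94, with 1.33, 2.17, 1.77 and 1.64 for αERKO-DES. WT-DES was highest, αERKO-veh lay between, and WT-veh and αERKO-DES overlapped. The *Angpt2* ratio was 2.89 (log2 change 1.15 ± 0.14, limma adjusted p = 2.65e-06). Both are low genes, for which log2(FPKM + 1) understates the fold.

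Members of a pair were also compared within each sample as log2 ratios of (FPKM + 0.1). A single scaling factor for a sample leaves such a ratio nearly as it is, but quantile normalization, which scales high and low genes differently, does not. In all, 9 such comparisons were made by exact two-sided permutation tests of 4 against 4 samples, whose smallest p is 0.0286. *Vegfc* relative to *Vegfa* was -3.84 ± 0.12 (SD, n = 4) in WT-veh, whereas WT-DES had -2.55 ± 0.19 (SD, n = 4). Each WT-DES sample (-2.51, -2.32, -2.61 and -2.77) was above each WT-veh sample (-3.91, -3.86, -3.93 and -3.67). The difference of 1.29 had an exact permutation p of 0.0286 (Benjamini-Hochberg adjusted 0.129), the smallest this design allows, and was higher in 4 of 4 samples. After quantile normalization the log2 changes of the 2 genes were closer together, at 0.19 for *Vegfc* and -0.26 for *Vegfa*, so the size of this difference depends on the scaling. *Angpt2* relative to *Angpt1* was 0.09 ± 0.17 in WT-veh and 0.16 ± 0.36 in WT-DES (exact permutation test, Benjamini-Hochberg adjusted p = 0.932). *Flt1* relative to *Kdr* was -0.76 ± 0.13 and -0.77 ± 0.32 (exact permutation p = 0.943, adjusted 0.943). Neither of these pairs differed by more than the spread between samples.

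**Figure D2:**
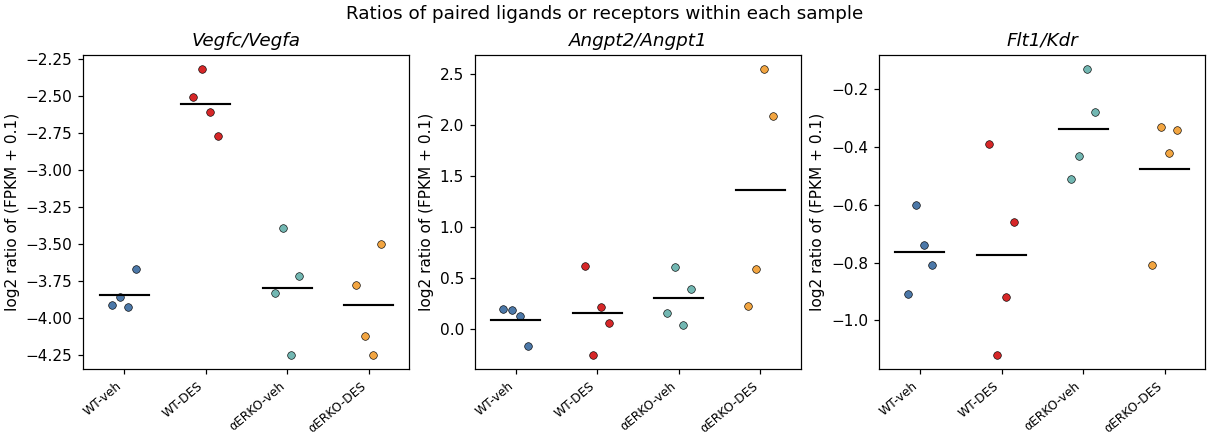
Log2 ratios of (FPKM + 0.1) within each sample (vertical axes) for 3 gene pairs in the 4 groups, with 1 point a sample and a line at the mean of 4. The *Vegfc*/*Vegfa* ratio sits between -2.77 and -2.32 in WT-DES and at or below -3.39 in all other samples.

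Without WT-DES replicate 1, the sample that stood apart in smooth muscle genes, 9 genes were again called, 8 higher and 1 lower. This sample was the lowest of its group for *Pecam1*, *Cdh5*, *Kdr*, *Flt1*, *Tek* and *Angpt1*, 6 of the 10 genes.

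The other genes of the vessel wall were counted in lists given by name. Of 20 further endothelial identity genes, 17 rose in WT-DES and 3 were not called, with a median log2 change of 0.98. The 3 largest log2 changes were in *Vwf*, the clotting factor carrier stored in endothelial cells (ratio 3.60), *Clec14a*, an endothelial surface lectin (ratio 3.94), and *Sox7*, an endothelial transcription factor (ratio 4.08). The genes not called were *Plvap* (ratio 1.47), *Ecscr* (1.46) and *Icam2* (1.31), named here after their values were seen. Of 21 further angiogenic signalling genes, 14 rose, 1 fell and 6 were not called, with a median of 0.96. *Thbs1*, which encodes an inhibitor of angiogenesis, had the largest rise (ratio 7.59), followed by the VEGF and semaphorin co-receptors *Nrp2* (5.10) and *Nrp1* (2.89). Without WT-DES replicate 1 the *Nrp2* ratio was 3.5 and the *Thbs1* ratio 6.05. The gene that fell was *Angpt4*, a further angiopoietin (ratio 0.497, limma adjusted p = 0.0269). Of the other VEGF family members, *Figf*, which encodes VEGF-D, rose (ratio 2.62, limma adjusted p = 4.01e-05), and *Vegfb* (ratio 0.865) and *Pgf* (1.08) were not called. *Angpt4* and these 3 genes were named after their values were seen.

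All 5 lymphatic endothelial genes rose, including *Mmrn1* (ratio 3.69), *Lyve1*, a hyaluronan receptor (2.43), and *Prox1*, the lymphatic master regulator (6.19). *Prox1* was a low gene, with means of 0.22 FPKM in WT-veh and 1.36 in WT-DES. Of 7 pericyte genes 6 rose, among them *Abcc9*, a potassium channel subunit (5.90), *Notch3* (3.08) and *Pdgfrb*, the receptor through which pericytes are recruited (2.99). Hypoxia target genes split, with 5 higher and 4 lower of 10. *Egln3*, an oxygen sensor, was higher (ratio 4.98) and so was *Ndrg1* (3.54), whereas the glucose transporter *Slc2a1* was lower (0.406).

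Markers of other cell types moved in the same comparison. Of 12 leukocyte genes 12 rose, with a summed FPKM of 117 to 196 in WT-veh and 559 to 825 in WT-DES. Among them *Ptprc* had a ratio of 12.6, *Cd4* of 20.7 and *Emr1* of 6.11. Of 6 fibroblast genes 6 rose (summed FPKM 731 to 881 against 1920 to 2090), with *Lum* at 6.51, *Pdgfra* at 4 and *Dcn* at 2.79. Adipose genes rose in 6 of 8 (157 to 673 against 586 to 1430), with the largest log2 changes in *Plin1* (ratio 4.07), *Cidec* (3.69) and *Adipoq* (3.28). Of 6 epithelial genes 5 fell (1700 to 1900 against 843 to 1030), with the largest log2 changes in *Cldn3* (ratio 0.280), *Krt18* (0.492) and *Krt19* (0.516), and 2 of 6 were called after quantile normalization and 3 of 6 with equal totals. Smooth muscle genes fell in 5 of 6 (2990 to 3730 against 791 to 3580), with the largest log2 changes in *Actg2* (ratio 0.477), *Cnn1* (0.413) and *Des* (0.585). For these 3 genes the samples overlapped, and for *Acta2* (ratio 0.452) and *Tagln* (0.476), named after their values were seen, they did not. Without WT-DES replicate 1 the ratios were 0.193 for *Actg2*, 0.238 for *Cnn1* and 0.246 for *Des*. After quantile normalization 0 of the 6 smooth muscle genes were called with limma. All 8 secretory genes fell, with *Svs3a* (0.0467), *Svs1* (0.0504) and *Spinkl* (0.0574) as the largest on the log2 scale, and without WT-DES replicate 1 *Svs3a* was at 0.0307 and *Svs1* at 0.0316. Of 10 skeletal muscle genes 2 fell, *Acta1* (0.153) and *Ckm* (0.260), and 1 was called with equal totals. Single samples set these ratios, which were 0.0679 for *Acta1* and 0.0701 for *Ckm* without WT-DES replicate 1 and 0.669 for *Ckm* without WT-veh replicate 4. None of these markers was listed at 0 in all samples of a group. The part of a changed cell makeup in the endothelial values was not tested.

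**Figure D3:**
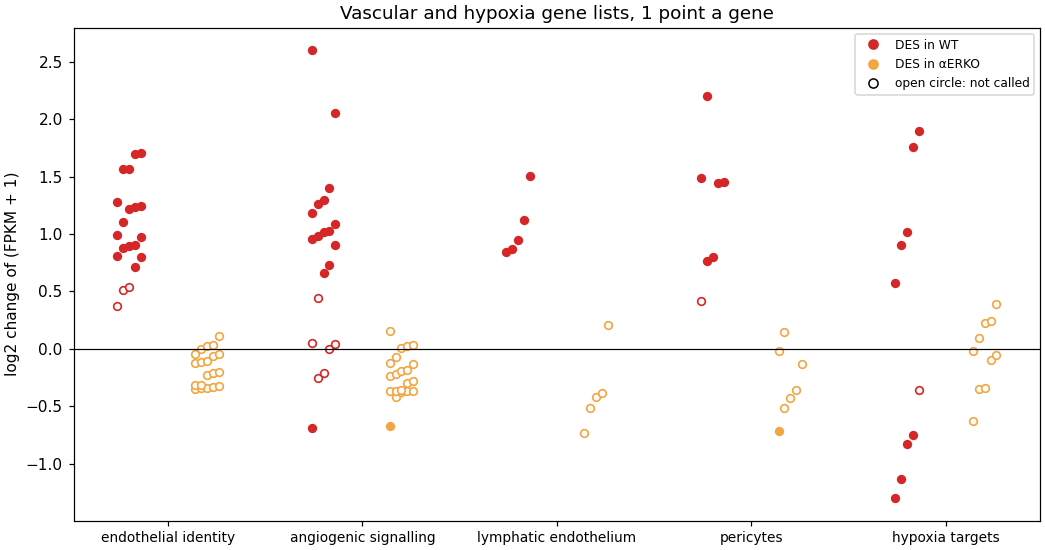
Log2 change of (FPKM + 1) with DES (vertical axis) for each gene of 5 lists, in WT (WT-DES against WT-veh) and in αERKO (αERKO-DES against αERKO-veh), with filled points for called genes. In WT 17 of 20 endothelial identity genes were called higher, and in αERKO 0 of 20 were called.

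**Figure D4:**
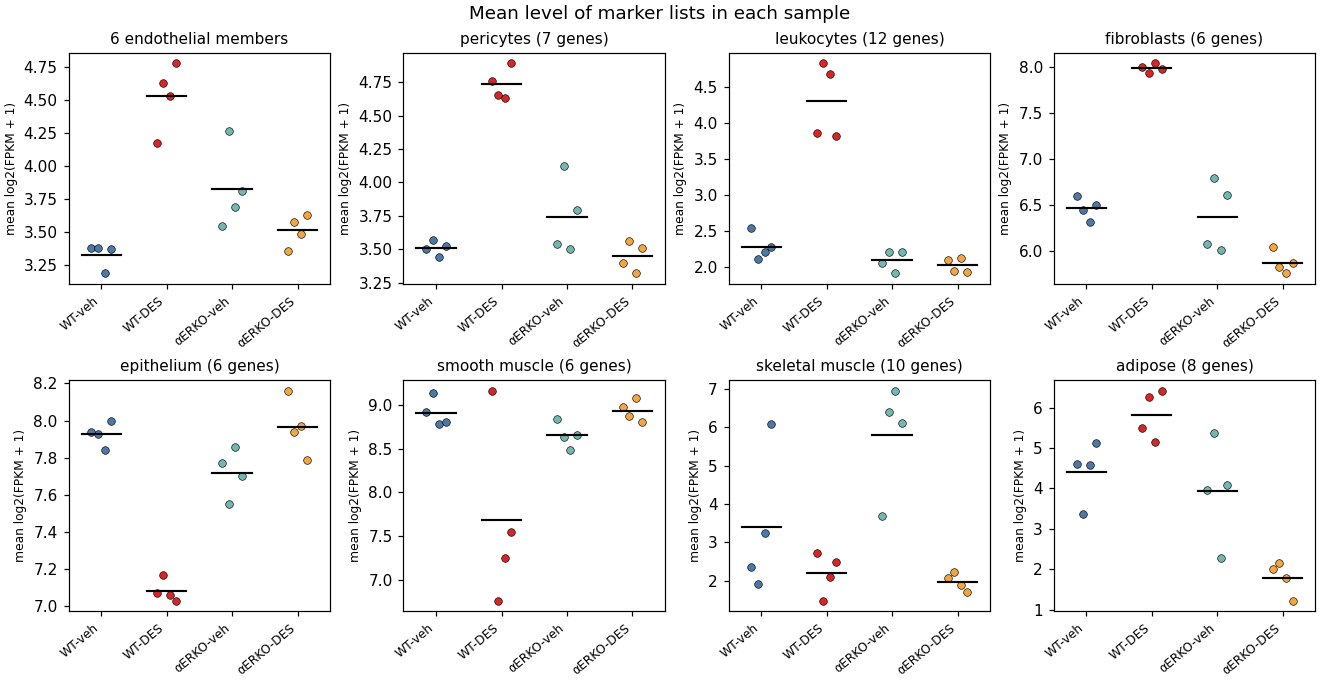
Mean log2(FPKM + 1) of the 6 endothelial members and of 7 marker lists (vertical axes, each with its own range that does not start at 0) in the 4 groups, 1 point a sample and a line at the mean. The 6 endothelial genes sit at 4.18 to 4.78 in WT-DES and at or below 4.27 elsewhere, while the skeletal muscle genes are highest in αERKO-veh.

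The comparison of αERKO-veh with WT-veh asked what the lack of ERα did without DES. The genes *Kdr*, *Flt1*, *Tek* and *Angpt2* rose, 4 of 10, against 7.12% of all genes called and 4.5% called higher. *Flt1* had the largest ratio, 2.24 (log2 change 0.94 ± 0.18, limma adjusted p = 0.00634), and *Angpt2* followed with 1.89 (0.64 ± 0.14, limma adjusted p = 0.00861). *Kdr* had a ratio of 1.67 (0.62 ± 0.19, limma adjusted p = 0.0294) and *Tek* of 1.65 (0.57 ± 0.17, limma adjusted p = 0.0229). For these 4 genes the groups did not overlap, and for the other 6 they did. The junction markers *Pecam1* (ratio 1.20) and *Cdh5* (1.36) were not called, nor were *Eng* (1.20), *Vegfa* (0.947), *Vegfc* (0.986) and *Angpt1* (1.61). *Angpt1* was called when only the 2 groups were fitted (log2 change 0.46, limma adjusted p = 0.0361) and with sample weights (0.54, limma adjusted p = 0.00528). The *Flt1* to *Kdr* log2 ratio was -0.34 ± 0.17 (SD, n = 4) in αERKO-veh, higher by 0.43 than in WT-veh in 4 of 4 samples (exact permutation p = 0.0286, adjusted 0.129). The other ratios in this comparison gave exact permutation p = 0.257 (*Angpt2* to *Angpt1*, difference 0.21, adjusted 0.579) and an adjusted p of 0.932 (*Vegfc* to *Vegfa*, difference 0.05).

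The lists gave few calls here. Of the 20 endothelial identity genes 1 was called, *Mmrn2* (ratio 1.57), and of the 21 angiogenic signalling genes 3, *Ptprb*, an endothelial phosphatase (2.09), *Angpt4* (1.96) and *Calcrl*, the adrenomedullin receptor (1.55). In pericytes 2 of 7 were called higher, *Abcc9* (1.71) and *Notch3* (1.56), and in lymphatic endothelium 0 of 5. These genes were named after their values were seen, and for *Angpt4*, *Abcc9* and *Notch3* the samples of the groups overlapped. After quantile normalization 0 endothelial identity genes and 1 pericyte gene were called, with the length trend removed 0 pericyte genes were, and with equal totals 5 angiogenic signalling genes were.

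*Kdr* and *Tek* lost the call in several settings, while *Flt1* and *Angpt2* lost it in none of the leave-one-out fits. Without αERKO-veh replicate 2, 2 genes were called, with log2 changes of 0.46 for *Kdr* (limma adjusted p = 0.107) and 0.43 for *Tek* (limma adjusted p = 0.0834). The count was also 2 without WT-veh replicate 3, WT-veh replicate 4 or αERKO-veh replicate 4. The 6 endothelial genes have longer transcripts than most, with a median of 4324.5 nt against 3243 nt for all tested genes, and after a trend on transcript length was removed from each sample *Kdr* (0.43, limma adjusted p = 0.113) and *Tek* (0.48, limma adjusted p = 0.0591) were not called.

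Skeletal muscle genes differed in the same comparison, with 5 of 10 higher in αERKO-veh, or 8 with equal totals. Of 12 leukocyte genes 2 were lower, and 0 to 1 were called after quantile normalization, with equal totals or with the length trend removed. Summed leukocyte FPKM was 117 to 196 in WT-veh against 77.4 to 119 in αERKO-veh. For the skeletal muscle genes, summed FPKM was 579 to 1870 (WT-veh) and 607 to 2280 (αERKO-veh). The mean log2(FPKM + 1) of these muscle genes was 2.36, 1.92, 3.24 and 6.09 in WT-veh. It was 3.69, 6.41, 6.95 and 6.10 in αERKO-veh. The mean of the 6 endothelial genes on the same scale was 3.38, 3.38, 3.19 and 3.37 in WT-veh and 3.55, 4.27, 3.69 and 3.81 in αERKO-veh. WT-veh replicate 4, which had the highest muscle level of its group, lay within the range of the other WT-veh samples in endothelial genes. αERKO-veh replicate 2 was highest in endothelial genes and, at 5.38, in the adipose list, in which αERKO-veh ranged from 2.28 to 5.38. The part of muscle, fat or leukocytes in the endothelial values was not tested.

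The comparison of αERKO-DES with αERKO-veh asked what DES did without ERα. No member rose. *Tek*, *Angpt1* and *Angpt2* fell, 3 of 10, against 1.41% of all genes called lower. *Angpt1* had a ratio of 0.276 (log2 change -1.15 ± 0.22, limma adjusted p = 0.0349), *Angpt2* of 0.498 (-0.70 ± 0.14, limma adjusted p = 0.0351) and *Tek* of 0.560 (-0.67 ± 0.17, limma adjusted p = 0.0475). For each of these 3 genes, a receptor and 2 of its ligands, the groups did not overlap. *Angpt4*, a further angiopoietin, was not called (ratio 0.701, limma adjusted p = 0.384). The log2 changes of the other members lay between -0.42 (*Flt1*, 95% interval -0.80 to -0.04) and -0.05 (*Vegfa*, -0.36 to 0.25). *Pecam1* changed by -0.13 (95% interval -0.43 to 0.17) and *Cdh5* by -0.25 (-0.65 to 0.14), so rises of the size seen in WT lay outside these intervals.

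The adjusted p of the 3 falls was close to its limit and the calls were not stable, while the log2 changes ranged from -1.32 to -0.99 for *Angpt1*, from -0.84 to -0.63 for *Angpt2* and from -0.82 to -0.53 for *Tek* when single samples were left out. In the leave-one-out fits 0 members were called without WT-veh replicate 3, αERKO-veh replicate 2, αERKO-veh replicate 4 or αERKO-DES replicates 1, 2 or 3, and 0 when only the 2 groups compared were fitted (limma adjusted p 0.0778 to 0.0907 for the 3 genes). Skeletal muscle genes fell in 7 of 10, adipose genes in 4 of 8 and fibroblast genes in 1 of 6 in the same comparison. The 6 fibroblast genes had log2 changes of -0.81 to -0.29 (median -0.49) and a summed FPKM of 599 to 980 in αERKO-veh against 496 to 594 in αERKO-DES. The mean muscle level ranged from 3.69 to 6.95 in αERKO-veh, whereas αERKO-DES ranged from 1.71 to 2.22, with *Ckmt2* and *Myl1* listed at 0 in at least 1 αERKO-DES sample, and the adipose level was 2.28 to 5.38 and 1.22 to 2.15. After quantile normalization 0 genes of these 3 lists were called with limma, and of all genes 5 were called (0.0318%). Summed FPKM was 607 to 2280 and 479 to 680 for muscle and 58.5 to 690 and 27.3 to 51.5 for fat. Their part in the 3 falls was not tested. None of the 20 endothelial identity genes was called with limma, with a median log2 change of -0.16, and 1 of 21 angiogenic signalling genes (*Calcrl*, ratio 0.577) and 1 of 7 pericyte genes (*Abcc9*, 0.508) fell. After quantile normalization 0 angiogenic signalling genes and 0 pericyte genes were called with limma. The *Angpt2* to *Angpt1* log2 ratio was 0.23, 0.59, 2.55 and 2.09 in αERKO-DES against 0.30 ± 0.25 in αERKO-veh (exact permutation p = 0.143, adjusted 0.429), the 2 high samples being those with *Angpt1* at 0.22 and 0.31 FPKM.

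**Figure D5:**
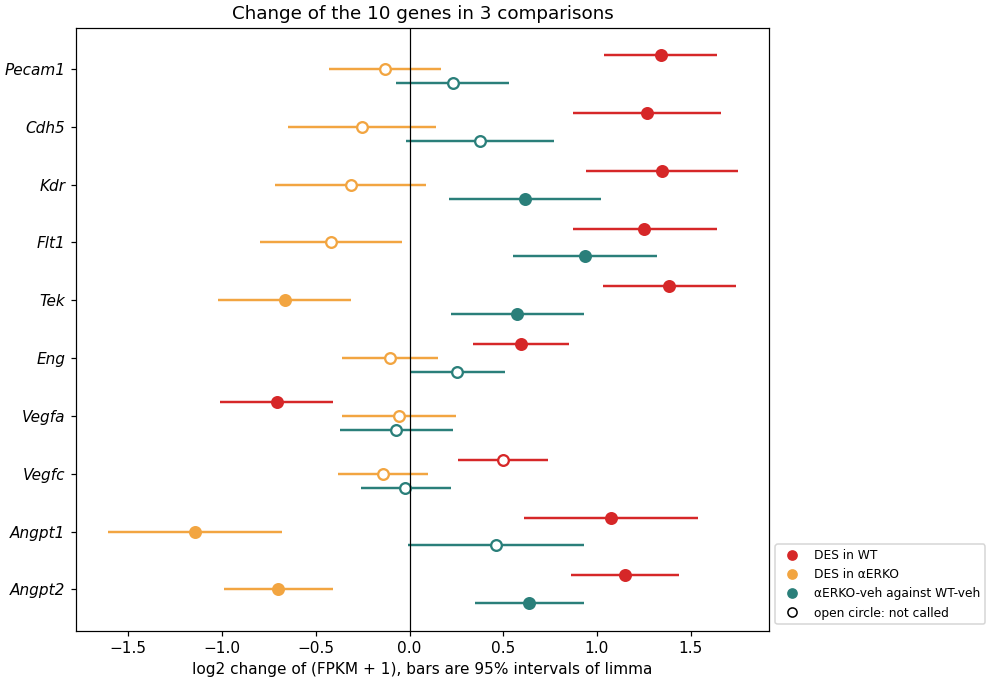
Log2 change of (FPKM + 1) (horizontal axis) of the 10 genes in 3 comparisons, with 95% intervals from limma and filled circles for called genes. With DES in WT 8 genes are called to the right of 0 and *Vegfa* to the left, and with DES in αERKO the called genes *Tek*, *Angpt1* and *Angpt2* are to the left.

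Whether the effect of DES differed between the genotypes was tested directly, as the change in WT minus the change in αERKO. All 10 members were called, 9 higher and *Vegfa* lower, against 56.4% of all genes called and 29.6% called higher. The differences on the log2 scale were 2.22 ± 0.31 for *Angpt1* (limma adjusted p = 1.69e-05), 2.05 ± 0.235 for *Tek* (2.79e-06) and 1.85 ± 0.19 for *Angpt2* (1.19e-06). These were the largest differences of the 10 on the deposited scaling, whereas after quantile normalization the largest was *Pecam1* (1.94), with *Tek* at 1.71, *Angpt1* at 1.62 and *Angpt2* at 1.22. *Flt1* (1.67), *Kdr* (1.66), *Cdh5* (1.52) and *Pecam1* (1.47) followed, and *Eng* (0.70) and *Vegfc* (0.64) differed least among the genes with a positive value. *Vegfa* differed by -0.65 ± 0.20 (limma adjusted p = 0.00902), and by -0.07 (limma adjusted p = 0.777) after quantile normalization and -0.10 (limma adjusted p = 0.679) with equal totals, so its call rests on the scaling. *Vegfc* likewise lost the call after quantile normalization (0.19, limma adjusted p = 0.281) and fell under 1.5-fold with sample weights (0.57), so 8 members were called under the former. Single samples also mattered for the genes nearest the 1.5-fold limit. *Vegfa* was not called without WT-veh replicate 2 (-0.56), WT-DES replicate 2 (-0.58) or αERKO-DES replicate 3 (-0.57), and *Vegfc* not without αERKO-veh replicate 2 (0.54). By lists, 17 of 20 endothelial identity genes, 15 of 21 angiogenic signalling genes, 5 of 5 lymphatic genes and 6 of 7 pericyte genes were called, all higher, whereas *Angpt4* was not called (-0.31, limma adjusted p = 0.454).

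Other cell types differed in the same test. Called higher were 11 of 12 leukocyte genes, 6 of 6 fibroblast genes, 8 of 8 adipose genes (median 4.36) and 6 of 10 skeletal muscle genes, with 1 skeletal muscle gene lower. Called lower were 5 of 6 epithelial genes, 5 of 6 smooth muscle genes and 8 of 8 secretory genes, of which 2 epithelial genes and 0 smooth muscle genes were called after quantile normalization with limma. Their part in the members' differences was not tested.

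Between DES-treated mice of both genotypes, 9 members differed, against 53.4% of all genes called. Without ERα, 8 were lower, against 29.6% of all genes, and *Vegfa* was higher. The ratios of αERKO-DES to WT-DES were 0.411 for *Pecam1*, 0.427 for *Cdh5*, 0.441 for *Kdr*, 0.564 for *Flt1*, 0.301 for *Tek*, 0.581 for *Vegfc*, 0.159 for *Angpt1* and 0.326 for *Angpt2*. *Eng* passed the test but not the fold (ratio 0.722, limma adjusted p = 0.00329), and *Vegfa* had a ratio of 1.5 (limma adjusted p = 0.00175). After quantile normalization 7 members were called, with *Vegfa* (log2 difference 0.16, limma adjusted p = 0.336), *Flt1* (-0.41) and *Vegfc* (-0.28) lost and *Eng* gained, and with equal totals *Vegfa* was at 0.20 (limma adjusted p = 0.217). The *Vegfa* call was lost without WT-DES replicate 2 or 3 or αERKO-DES replicate 2 or 3 (log2 difference 0.50 to 0.56). In the same comparison 12 of 12 leukocyte genes, 6 of 6 fibroblast genes and 8 of 8 adipose genes (median log2 difference -5.03) were lower. Higher were 5 of 6 epithelial, 5 of 6 smooth muscle and 8 of 8 secretory genes. After quantile normalization 1 epithelial gene and 0 smooth muscle genes were called with limma, and with equal totals 2 epithelial genes were. The part of these cell types in the members' values was not tested. This comparison shares the WT-DES samples with the first one and adds no independent samples of that group.

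Between αERKO-DES and WT-veh, 0 members were called with limma, against 3.18% of all genes. At an unadjusted p under 0.05 there were 2, *Flt1*, higher with a ratio of 1.6 (limma adjusted p = 0.0844), and *Angpt1*, lower with a ratio of 0.443 (limma adjusted p = 0.0672). The 95% intervals of the log2 difference were -0.20 to 0.40 for *Pecam1*, -0.27 to 0.52 for *Cdh5*, -0.45 to 0.26 for *Tek* and -0.43 to 0.17 for *Vegfa*. Without αERKO-DES replicate 1 both *Flt1* (log2 difference 0.68, limma adjusted p = 0.0189) and *Angpt1* (-0.79, limma adjusted p = 0.038) were called, and *Angpt1* was called alone without αERKO-DES replicate 2 or WT-DES replicate 1. The WT-veh samples are shared with the other comparisons against that group. In the same comparison 5 of 8 adipose genes (median log2 difference -3.05), 3 of 6 fibroblast genes (median -0.53) and 2 of 12 leukocyte genes were lower, with 1 fibroblast gene called after quantile normalization and 1 leukocyte gene with the length trend removed, and their part in the members' values was not tested. Of the endothelial identity genes 1 of 20 was called, *Cldn5*, a tight junction gene (ratio 0.563), with samples that overlapped, and 0 were called after quantile normalization, with equal totals or with the length trend removed.

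Within the 6 endothelial genes the profile across samples was not the same for each gene. On the log2(FPKM + 1) scale *Eng* stood 1.35 ± 0.17 above the mean of the 6 (SD, n = 4) in WT-veh but 0.75 ± 0.21 above it in WT-DES. *Tek* stood 1.03 ± 0.06 below that mean in WT-veh, 0.85 ± 0.06 below it in WT-DES and 1.31 ± 0.05 below it in αERKO-DES. *Flt1* stood 1.33 ± 0.16 below it in WT-veh and 0.89 ± 0.07 below it in αERKO-veh. The genes whose centred profile over the 16 samples was most like the mean of the 6, among 15978 other genes, were *Gpr116*, an adhesion receptor of endothelium and lung epithelium (root mean square difference 0.091 on the log2 scale), *She* (0.107), *Egfr*, the epidermal growth factor receptor (0.110), *Ppap2b*, a lipid phosphatase (0.112), and *Gprin3* (0.115). A flat profile would differ by 0.493. *Gpr116* was 5.94 ± 0.81 FPKM (SD, n = 4) in WT-veh, rising to 15.6 ± 2.76 in WT-DES, and *Gprin3*, at 0.22 ± 0.15 and 1.73 ± 0.43, was a low gene in which the added 1 FPKM shapes the profile.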

How the data were processed

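RNA-seq was run on 16 SV samples. The authors aligned paired-end reads to mm10 with TopHat2 (2.0.4) and computed the deposited FPKM values per gene with Cufflinks (2.0.2). The gene annotation and any scaling between libraries are not given in the sources used here. The files hold no read counts, so the depth is unknown and precision rests on the 4 samples of a group. Columns were mapped to samples by their titles, and no 2 columns were identical.

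Genes whose group mean exceeded 1 FPKM somewhere were tested as log2(FPKM + 1) in 1 model of the 16 samples with limma 3.58.1 in R 4.3.3 (eBayes with a variance trend, Benjamini-Hochberg adjustment over the 15988 genes of each comparison). A gene was called where adjusted p did not exceed 0.05, mean FPKM differed by 1.5-fold or more and 1 of the groups averaged above 1 FPKM. For the interaction, the difference had to reach 1.5-fold. The code was tested on simulated data. Lengths came from GENCODE M21 (22557 genes matched by symbol and 1017 by synonym, covering 94.1% of tested genes). Genes named beyond the members were *Esr1*, the 3 largest called changes in WT-DES against WT-veh of each list, and the 5 genes most like the mean of the 6 endothelial members. Other genes named in the lists were chosen after their values were seen. The members and lists were chosen with earlier results of these data known.

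Also tried were a pseudocount of 0.1, no minimum or a minimum of 5 on mean FPKM, a fit of only the groups compared, a replicate block, sample weights, quantile normalization, median-ratio scaling, equal totals without the top 20 genes, leaving out each sample, and, added after seeing the data, removal of a lowess trend (span 0.3) on transcript length.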

Additional observations from a re-analysis of the deposited data

Results flagged for a closer look

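Among 40 sets of 4 samples (10 genes in 4 groups), 3 held a sample far from the others by Dixon's test at the 95% level, and chance gives about 1 in 20 of such sets. *Kdr* was 9.28 FPKM in WT-DES replicate 1 against 16.6 to 17.9 in the other WT-DES samples. *Pecam1* was 28.77 FPKM in αERKO-DES replicate 2 against 24.49 to 24.99 in the others. *Vegfc* was 6.31 FPKM in αERKO-veh replicate 2 against 4.28 to 4.60 in the others.

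The change with DES differed between WT and αERKO for all 10 genes by the interaction term of limma. The difference, WT minus αERKO on the log2 scale, was 1.47 for *Pecam1*, 1.52 for *Cdh5*, 1.66 for *Kdr*, 1.67 for *Flt1*, 2.05 for *Tek*, 0.70 for *Eng*, -0.65 for *Vegfa*, 0.64 for *Vegfc*, 2.22 for *Angpt1* and 1.85 for *Angpt2*. After quantile normalization 8 of the 10 were called, without *Vegfa* (-0.07) and *Vegfc* (0.19).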

How the results depend on the processing

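The direction of the members' log2 change with DES in WT was the same for all 10 genes in all alternatives run, and 8 to 10 were called when each sample was left out. The cause of the changes below was not tested. For αERKO-veh against WT-veh the count was 2 after quantile normalization, 2 with the length trend removed, 3 with a minimum of 5 FPKM, 5 with only the groups compared, 5 with sample weights and 2 to 4 with single samples left out. For αERKO-DES against αERKO-veh it was 1 with a minimum of 5 FPKM, at which *Angpt1* was not tested, 0 with only the groups compared, 0 after quantile normalization and 0 to 3 with single samples left out. For αERKO-DES against WT-DES it was 7 after quantile normalization and 8 to 9 with single samples left out, and for the interaction 8 and 9 to 10. For αERKO-DES against WT-veh it was 1 (*Angpt1*) with a pseudocount of 0.1, 1 (*Flt1*) with sample weights and 0 to 2 with single samples left out. Small log2 changes turned sign: for αERKO-veh against WT-veh, *Vegfa* to 0.09 (quantile) and 0.11 (equal totals), *Vegfc* to 0.13 (equal totals) and 0.10 (length), with ranges over single samples left out of -0.17 to 0.02 and -0.13 to 0.05. For αERKO-DES against αERKO-veh, *Vegfa* turned to 0.14 (weights; -0.13 to 0.04 over samples left out) and *Pecam1* ranged from -0.21 to 0.02. For αERKO-DES against WT-veh, *Angpt2* turned to 0.02 (weights) and 0.09 (quantile), and ranged from -0.14 to 0.01. The *Flt1* to *Kdr* ratio in WT changed by 0 with a pseudocount of 0.01 and by -0.13 to 0.11 over samples left out. That of *Angpt2* to *Angpt1* in WT changed by -0.08 to 0.21. The *Vegfc* to *Vegfa* difference ranged from -0.09 to 0.20 in αERKO-veh against WT-veh and from -0.27 to 0.02 with DES in αERKO. The *Flt1* to *Kdr* difference in αERKO-veh ranged from 0.36 to 0.48, with exact permutation p = 0.0571 without WT-veh replicate 1 or αERKO-veh replicate 3.

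Samples with the same replicate number did not deviate together (r of their deviations from -0.21 to 0.28). With the replicate number as a block, 9 members were called in WT-DES against WT-veh, 4 in αERKO-veh against WT-veh, 3 in αERKO-DES against αERKO-veh and 10 in the interaction, the counts without the block.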
